A study of Sus scrofa with 9 samples.

Results

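Haem, the iron-holding ring of haemoglobin, cytochromes and catalase, is built by a chain of enzymes that starts and ends in the mitochondrion and runs through the cytosol in between. ALAS1 or, in red cell precursors, ALAS2 joins glycine and succinyl-CoA to 5-aminolevulinate, and the last enzyme, FECH, places ferrous iron in the finished ring. The liver is the main site of haem synthesis outside the bone marrow, because its cytochromes P450 need haem, and in hepatocytes ALAS1 sets the rate and is held down by haem itself. The data described here are the liver transcript levels of the haem synthesis enzymes ALAS1, ALAD, UROS, UROD, CPOX, PPOX and FECH, chosen by name from the 25918 genes of the expression table. Of these 7 enzymes, 6 had a value in every library. ALAS1 (chromosome 13, 34333263 to 34347435, Sscrofa11.1) is listed as a transcribed pseudogene in annotation release 106 of the pig genome, and the table holds values for protein-coding and new genes, so the rate-setting enzyme was not analysed here. All 6 enzymes passed the filter of a mean FPKM (fragments mapped per kilobase of transcript, scaled to the mapped fragments of the library) of at least 0.5. The erythroid ALAS2 was read beside them.

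The liver samples came from Wujin pigs, a breed of the plateaus of Southwest China, that ate a basal diet with 0 (low-iron group), 100 (control group) or 200 mg/kg (high-iron group) of iron added as iron glycinate. The pigs were 35 days old at the start and were fed for 5 days of adaptation and 30 days of trial. RNA of 3 pigs a group was sequenced, and libraries are named here by group and animal number. The labels do not give the sex of each pig. The low-iron group had a diet without added iron, not an iron-free feed.

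The transcripts of TFRC and HAMP, read here as markers of iron status, were not uniform within groups. The data hold no measure of liver iron. TFRC, the receptor that takes up transferrin-bound iron, stood at 87.9, 130 and 28.6 FPKM in low-iron 2, 3 and 7, at 6.51, 17.0 and 7.51 FPKM in control 4, 5 and 6 and at 40.6, 15.9 and 18.5 FPKM in high-iron 2, 7 and 8. HAMP, which encodes hepcidin, the liver hormone that closes iron export, was at 3.84, 2.02 and 70.5 FPKM in the low-iron, at 50.3, 42.0 and 16.2 FPKM in the control and at 52.3, 6.87 and 21.8 FPKM in the high-iron libraries. Low-iron 7 thus had the highest HAMP of all, and high-iron 2 had more TFRC than low-iron 7. The fold changes below were also computed without each library in turn. Hepatocyte markers were abundant in each library, with a summed FPKM of 84822 to 104657 over 12 genes. In whole tissue, fewer cells of a type and less RNA per cell cannot be told apart.

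No haem synthesis enzyme passed the test between any pair of dietary groups, and the intervals kept nearly all differences within 2-fold. A gene was called changed at a fold change of at least 2 with an unadjusted p under 0.05 in the limma fit, the thresholds that the study's methods give. By this rule 0 of 6 enzymes were called in any comparison. The rule called 0.882% of the 12584 tested genes for low-iron against control, 1.57% for high-iron against control and 1.54% for high-iron against low-iron. At such shares, 0 of 6 does not set the enzymes apart from other genes. The enzymes' adjusted p-values in limma (Benjamini-Hochberg over all tested genes) ran from 0.748 to 0.9998. At the unadjusted p under 0.05 alone, 1 of the 18 enzyme contrasts passed, UROS for high-iron against control, where 5.59% of all tested genes did. In 18 of 18 contrasts the upper end of the 95% interval was under a 2-fold difference, and in 17 the lower end was over 0.5-fold. The 1 exception was ALAD between the high-iron and control groups, whose interval reached down to 0.482-fold. The interval held 1-fold, no difference, in 17 contrasts, all but UROS for high-iron against control. In those 17, smaller differences lay inside the intervals and were not detectable with 3 libraries a group.

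**Figure D1:**
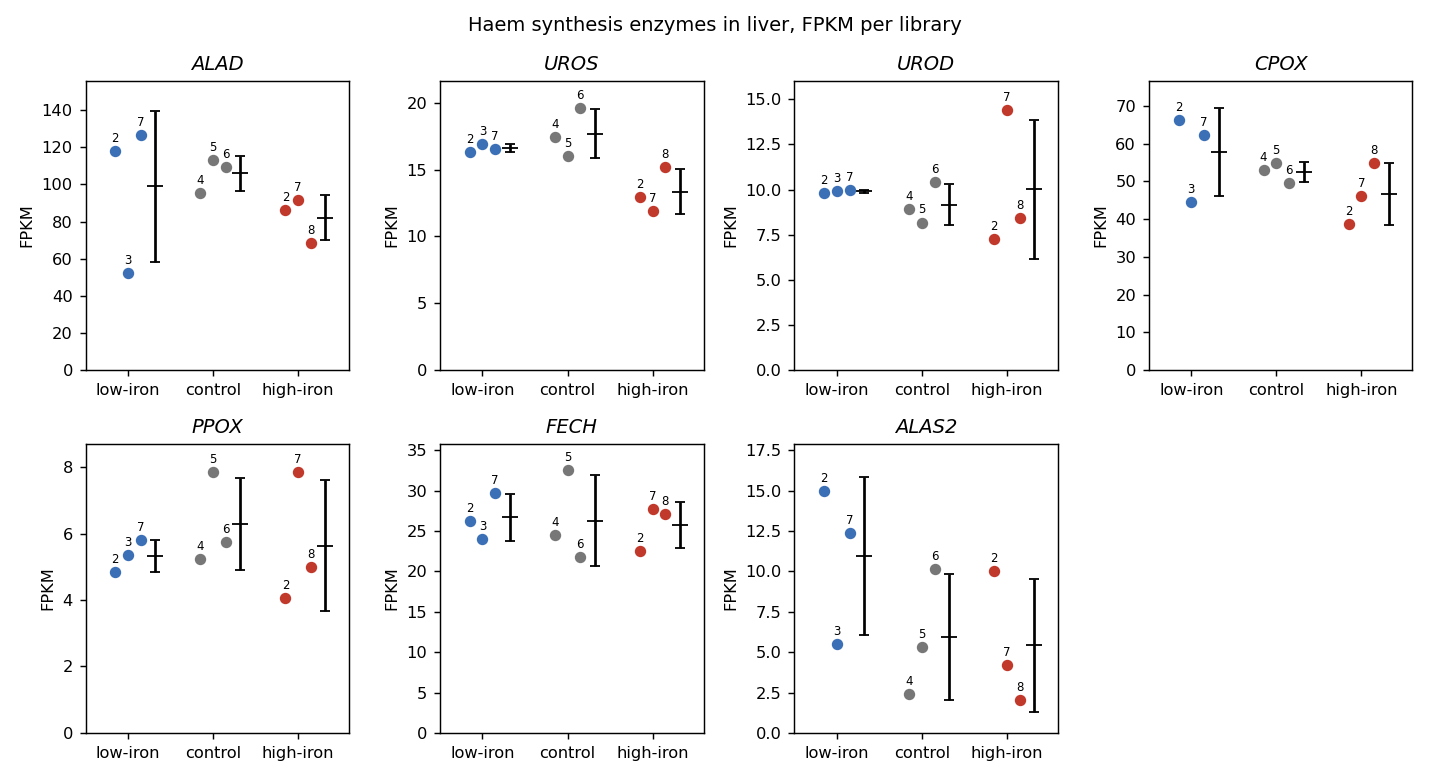
FPKM of 6 haem synthesis enzymes and of ALAS2 in each library (points, with the animal number), by dietary group, with the group mean and SD (n = 3) as a bar beside them and each vertical axis starting at 0. The high-iron points of UROS lie below all other points of that gene, those of ALAD lie below the control points, and low-iron 3 stands low in ALAD.

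ALAD joins 2 molecules of 5-aminolevulinate to porphobilinogen in the cytosol and is the most abundant of the 6 transcripts. It lies on chromosome 1 (254015426 to 254027584, minus strand). Its level was 118, 52.1 and 127 FPKM in low-iron 2, 3 and 7, 95.2, 113 and 109 FPKM in control 4, 5 and 6, and 86.0, 91.8 and 68.5 FPKM in high-iron 2, 7 and 8. All 3 high-iron libraries were below all 3 control libraries, whereas the low-iron group held both the lowest value and the highest. The means were 99.0 ± 40.8 (low-iron), 106 ± 9.59 (control) and 82.1 ± 12.1 FPKM (high-iron; SD, n = 3 each). The high-iron mean was 0.771-fold the control mean on the log2(FPKM + 0.1) scale (log2 fold change -0.38, SE 0.31, limma adjusted p = 0.951). The exact 2-sided permutation test gave p = 0.1, the smallest value that 3 libraries against 3 allow. The low-iron group differed from the control group by -0.20 (SE 0.31, limma adjusted p = 0.9998) on the log2 scale. This value rests on low-iron 3: without it the difference was 0.21, and the high-iron minus low-iron difference went from -0.18 to -0.59 (limma adjusted p = 0.464). In low-iron 3 the summed FPKM of 8 stellate cell and fibroblast markers was 324, against 129 and 143 in the other low-iron libraries, and the part of this in its ALAD level was not tested.

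UROS makes the ring uroporphyrinogen III, and its lack causes congenital erythropoietic porphyria. It lies on chromosome 14 (135101609 to 135131082, minus strand) and has 21 transcript models in the annotation. The level of UROS was 16.3, 16.9 and 16.5 FPKM in low-iron 2, 3 and 7, 17.4, 16.0 and 19.6 FPKM in control 4, 5 and 6, and 12.9, 11.9 and 15.2 FPKM in high-iron 2, 7 and 8. It is the enzyme whose high-iron libraries all lay below all libraries of both other groups. The group means were 16.6 ± 0.312 (low-iron), 17.7 ± 1.81 (control) and 13.4 ± 1.668 FPKM (high-iron; SD, n = 3 each). The high-iron mean was 0.755-fold the control mean (95% interval 0.586 to 0.973, log2 fold change -0.41, SE 0.17, limma p = 0.0331, adjusted p = 0.892, exact permutation p = 0.1). Against the low-iron group it was 0.802-fold (95% interval 0.622 to 1.03, limma p = 0.0816, adjusted p = 0.748, exact permutation p = 0.1). The low-iron and control groups overlapped, with a log2 difference of -0.09 (SE 0.17). An exact permutation test across the 3 groups, with the F statistic recomputed for each way of dividing the 9 libraries, gave p = 0.0179 for UROS, and p = 0.354 to 0.954 for the other 5 enzymes, none of them adjusted for the 6 genes. The adjusted p of the limma F test was 0.906 for UROS. Over the main fit, the alternatives and left-out libraries, the limma p of the high-iron against control difference ran from 0.00657 to 0.111. It was under 0.05 in 14 of these 19, and the adjusted p was never below 0.615. It was over 0.05 without control 4 (0.0654), control 6 (0.103), high-iron 2 (0.0707) or high-iron 7 (0.111), and with only the compared groups (0.0569). Leaving out a low-iron library does not alter this difference itself.

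Counted over the 6 enzymes, the groups did not overlap in 0 cases between low-iron and control (8.34% of all tested genes), in 2 between high-iron and control, ALAD and UROS, both lower (10.9% of all tested genes, 1.76% lower), and in 1 between high- and low-iron, UROS, lower (13.2% of all tested genes, 5.13% lower). Under median-of-ratios scaling between libraries, chosen after the data were seen, CPOX joined them and the count between high-iron and control was 3. The marker sums of endothelial cells and of stellate cells and fibroblasts also lay higher in all high-iron than in all control libraries. The sums of the other lists overlapped between these groups. A sum follows its most abundant genes, so single markers were also counted. Without overlap, 7 of 8 endothelial and 3 of 8 stellate cell and fibroblast markers were higher in the high-iron than in the control libraries. So were 6 of 10 macrophage, 1 of 7 tested B and T cell and 0 of 5 bile duct markers (9.14% of all tested genes). Of 12 hepatocyte markers, 2 were lower without overlap (1.76% of all tested genes). The summed FPKM of 8 endothelial markers was 166 to 175 in the high-iron, 122 to 124 in the control and 126 to 171 FPKM in the low-iron libraries. The sum of 8 stellate cell and fibroblast markers was 217 to 325 FPKM in the high-iron and 125 to 211 FPKM in the control libraries, with the low-iron libraries at 129 to 324. That of 8 B and T cell markers was 29.0 to 49.7 (high-iron), 20.3 to 32.6 (control) and 22.1 to 25.6 FPKM (low-iron). That of 5 bile duct markers was 27.4 to 42.3, 11.4 to 32.2 and 13.2 to 35.2 FPKM in the same order. The sum of 10 macrophage markers was 1306 to 1593 FPKM in the high-iron, 1038 to 1336 FPKM in the control and 1175 to 1341 FPKM in the low-iron libraries. That of 12 hepatocyte markers was 84822 to 94901, 90634 to 104657 and 84864 to 91933 FPKM in this order. No marker of these 6 lists was at 0 in all libraries, and their part in the ALAD and UROS values was not tested.

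The 250 bases upstream of the annotated gene starts (RefSeq annotation of Sscrofa11.1, printed in the direction of transcription) are given for ALAD and UROS, whose high-iron libraries stood apart from the controls, and for FECH, whose group means were the closest together. Capitals mark GGGCGG (GC box) and CCAAT on either strand, so that CCGCCC and ATTGG are the same motifs read on the other strand.

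ALAD, chr1:254027585-254027834, minus strand: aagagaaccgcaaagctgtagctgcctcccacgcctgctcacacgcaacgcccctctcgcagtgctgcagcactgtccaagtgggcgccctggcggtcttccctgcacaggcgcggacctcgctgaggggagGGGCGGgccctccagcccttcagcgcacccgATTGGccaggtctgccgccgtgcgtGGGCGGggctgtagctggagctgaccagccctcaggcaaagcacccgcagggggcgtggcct

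UROS, chr14:135131083-135131332, minus strand: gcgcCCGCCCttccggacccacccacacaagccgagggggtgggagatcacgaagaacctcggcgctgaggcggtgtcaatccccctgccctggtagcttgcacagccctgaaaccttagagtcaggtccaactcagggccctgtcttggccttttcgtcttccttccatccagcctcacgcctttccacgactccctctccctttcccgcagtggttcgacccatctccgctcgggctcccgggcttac

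FECH, chr1:106898408-106898657, minus strand: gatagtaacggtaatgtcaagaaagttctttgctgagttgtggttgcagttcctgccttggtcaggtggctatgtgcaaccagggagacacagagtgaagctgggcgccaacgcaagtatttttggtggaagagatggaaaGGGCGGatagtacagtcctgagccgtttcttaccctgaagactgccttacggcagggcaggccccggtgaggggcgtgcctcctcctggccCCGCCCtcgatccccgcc

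GGGCGG stood in the window of 5 of the 6 enzymes, with PPOX the one without it, and in 44.5% of the 20650 windows of the same length before pig protein-coding genes. CCAAT was found in 1 of 6, ALAD (32% of all windows). GATAA, the core letters bound by GATA factors, and ACGTG, the core letters of a hypoxia response element, were each found in 1 of 6, CPOX (19.9% and 18.2% of all windows). ALAD was 70% G and C and UROS 63.6%, beside a median of 57.2% over all windows, and FECH was at that median, 57.2%. A match is a run of letters and was not tested as a binding site.

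UROD removes carboxyl groups from uroporphyrinogen, and its loss in the liver causes porphyria cutanea tarda, in which liver iron is a known aggravating factor. It lies on chromosome 6 (166327243 to 166330558, minus strand). UROD stood at 9.81, 9.93 and 9.97 FPKM in low-iron 2, 3 and 7, at 8.90, 8.17 and 10.4 FPKM in control 4, 5 and 6 and at 7.25, 14.4 and 8.41 FPKM in high-iron 2, 7 and 8. The low-iron libraries lay close together (coefficient of variation 0.851%), while high-iron 7 alone stood above every other library and high-iron 2 below. The log2 differences were 0.12 (low-iron minus control), 0.07 (high-iron minus control) and -0.05 (high-iron minus low-iron), each with an SE of 0.24 and a limma adjusted p of 0.983 or more. Without high-iron 7 the last pair became -0.22 and -0.34.

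CPOX turns coproporphyrinogen into protoporphyrinogen in the space between the mitochondrial membranes. It lies on chromosome 13 (160332436 to 160345862, plus strand). CPOX was at 66.3, 44.5 and 62.3 FPKM in the low-iron, at 52.9, 54.9 and 49.6 FPKM in the control and at 38.8, 46.1 and 54.95 FPKM in the high-iron libraries. Group means were 57.7 ± 11.6 (low-iron), 52.5 ± 2.67 (control) and 46.6 ± 8.10 FPKM (high-iron; SD, n = 3 each), and the groups overlapped in each comparison. The high-iron minus low-iron difference was -0.30 on the log2 scale (SE 0.20, limma adjusted p = 0.809). As in ALAD, low-iron 3 was the lowest of its group, and without it the difference was -0.48 (limma adjusted p = 0.528).

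PPOX oxidizes protoporphyrinogen to protoporphyrin, and its partial lack is variegate porphyria. It lies on chromosome 4 (89277984 to 89288946, minus strand). PPOX was the lowest of the 6, at 4.85, 5.34 and 5.80 FPKM in the low-iron, at 5.24, 7.85 and 5.76 FPKM in the control and at 4.05, 7.84 and 5.003 FPKM in the high-iron libraries. Control 5 and high-iron 7 stood above the rest, so the spread lay inside the groups. The log2 differences were -0.21, -0.19 and 0.03 in the order used for UROD (SE 0.26 each).

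FECH, the iron-inserting enzyme, carries an iron-sulphur cluster itself. It lies on chromosome 1 (106861628 to 106898407, minus strand). FECH was at 26.3, 24.0 and 29.8 FPKM in the low-iron, at 24.5, 32.6 and 21.8 FPKM in the control and at 22.5, 27.7 and 27.1 FPKM in the high-iron libraries. The group means, 26.7 ± 2.90, 26.3 ± 5.61 and 25.8 ± 2.85 FPKM (SD, n = 3 each), lay closer together than the libraries of any group. The high-iron mean was 0.991-fold the control mean (95% interval 0.735 to 1.33, limma adjusted p = 0.995), and the low-iron mean was 1.03-fold the control mean (0.762 to 1.38). These values lay so near 0 on the log2 scale that another scaling or 1 left-out library turned their sign.

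**Figure D2:**
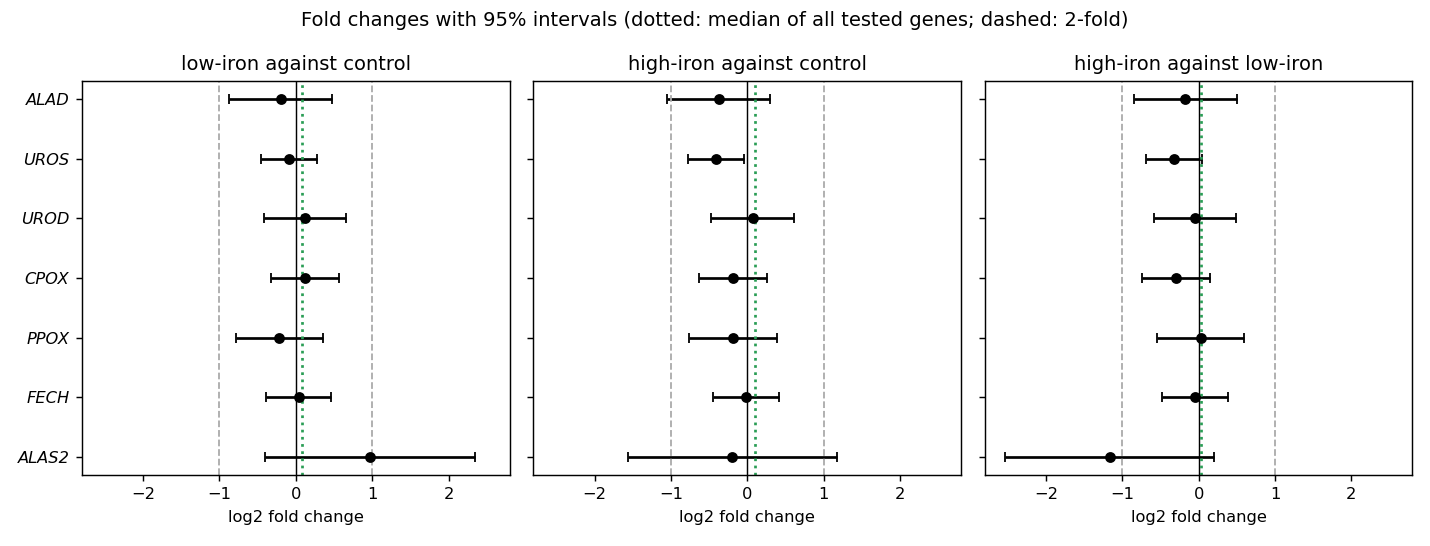
Log2 fold change (points) with its 95% interval (bars) of 6 haem synthesis enzymes and ALAS2 in the 3 comparisons, with dashed lines at a 2-fold difference and a dotted line at the median of all tested genes. The interval of UROS against control lies wholly below 0, and those of ALAS2 are the widest.

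The median of the 6 enzymes lay below that of all tested genes in each comparison, a description with no test. Their median log2 difference was -0.02 in the low-iron against control comparison (3 above 0 and 3 below), -0.19 in the high-iron against control comparison (1 above and 5 below) and -0.11 in the high-iron against low-iron comparison (1 above and 5 below). The medians over all 12584 tested genes were 0.08, 0.10 and 0.03. Median-of-ratios scaling moved the all-gene median of the high-iron against control comparison by -0.13, and relative to the all-gene median the enzymes were at -0.28 before and at -0.29 after that scaling. Relative to the all-gene median, the low-iron against control value was -0.10, and it turned to 0.048 without low-iron 3 and to 0.019 with array quality weights. The last 2 comparisons share the high-iron libraries and the first 2 the controls, so they are not separate evidence. The median of the high-iron against control comparison was -0.02 without high-iron 2, the library with the lowest level in UROD, CPOX and PPOX and the second lowest in FECH.

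Levels differed far more between enzymes than between diets. On the FPKM scale, which corrects for length, the means over 9 libraries were 95.7 for ALAD, 52.3 for CPOX, 26.2 for FECH, 15.9 for UROS, 9.70 for UROD and 5.75 for PPOX. This order held in 8 of 9 libraries, the exception being high-iron 7, where UROD was above UROS. Over the 9 libraries the range of CPOX did not overlap that of FECH, nor that of FECH that of UROS, whereas the ranges of ALAD and CPOX, of UROS and UROD, and of UROD and PPOX did. The ratio of the highest to the lowest library was smallest for FECH (1.495) and UROS (1.65) and largest for ALAD (2.43). The 6 levels added up to 153 to 251 FPKM in the low-iron, 204 to 233 FPKM in the control and 172 to 200 FPKM in the high-iron libraries, and ALAD made up 34.1% to 50.5% of the sum.

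The enzymes did not vary as 1 block across the livers. Of the 15 pairs, 12 had a Pearson correlation above 0 over the 9 libraries on the log2 scale, with a median r of 0.15. The pairs over 0.5 were PPOX with FECH (0.64), UROD with PPOX (0.57), ALAD with CPOX (0.56) and CPOX with FECH (0.55). After the group means were taken out, 11 pairs were above 0 and these 4 values were 0.70, 0.68, 0.57 and 0.59. UROS had an r of 0.43 with CPOX (0.11 after the group means were taken out), 0.15 with ALAD, -0.11 with PPOX, -0.17 with UROD and -0.19 with FECH. All points share their library, so that depth and tissue make-up enter each pair, and the values are a description of 9 livers.

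**Figure D3:**
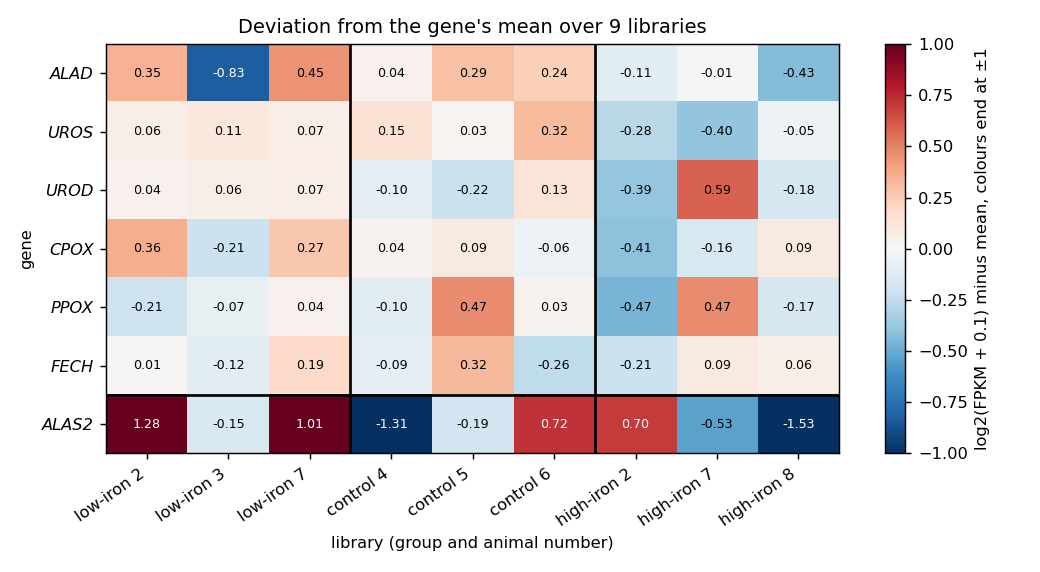
Deviation of each library from the gene's mean over 9 libraries, in log2(FPKM + 0.1), for 6 haem synthesis enzymes (above the line) and ALAS2 (below it), with vertical lines between the dietary groups and colours ending at ±1. High-iron 2 is below the mean in all 6 enzymes, and UROD and PPOX are high in high-iron 7 while UROS is low there.

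The likeness of other genes to the enzymes was taken as Pearson's r, over the 9 libraries, with the mean standardized profile of the 6. The 3 most alike of 11118 named genes were C5H12orf73 (r = 0.946), SDHC (r = 0.945), a subunit of succinate dehydrogenase, and DLST (r = 0.932), a subunit of the 2-oxoglutarate dehydrogenase complex. Picked as the highest of 11118 values over 9 libraries, these r are high by selection, and a link to haem synthesis was not tested. The mean profile was lowest in high-iron 2 (-1.21) and highest in low-iron 7 (0.66), and the enzymes' own r with it ran from 0.31 for UROS to 0.77 for CPOX. The likeness to ALAS1 could not be taken, as that gene had no row.

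ALAS2, the first enzyme in red cell precursors, whose transcript carries an iron-responsive element, varied more than any of the 6. Its level was 14.97, 5.501 and 12.4 FPKM in low-iron 2, 3 and 7, 2.41, 5.35 and 10.1 FPKM in control 4, 5 and 6, and 10.01, 4.199 and 2.05 FPKM in high-iron 2, 7 and 8. The groups overlapped throughout. The low-iron mean was 1.96-fold the control mean (95% interval 0.757 to 5.08, limma adjusted p = 0.9998), and the high-iron mean was 0.446-fold the low-iron mean (0.172 to 1.15, limma adjusted p = 0.756). The summed level of 14 erythroid markers, most of it haemoglobin beta, ran over a similar spread of libraries, from 479 to 2457 FPKM in the low-iron, 212 to 1452 FPKM in the control and 352 to 841 FPKM in the high-iron group, with KLF1 and RHAG at 0 in all 9. The part of red cell RNA in the ALAS2 values was not tested.

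Of the lists of genes around haem synthesis, none of those on transport, substrate, regulation, breakdown or use of haem had a called gene in any comparison. Medians and counts are given in the order low-iron against control, high-iron against control and high-iron against low-iron. An unadjusted p under 0.05 is named as such. In that order, 0.882%, 1.57% and 1.54% of all tested genes were called. Of all tested genes, 3.68%, 5.59% and 7.15% had an unadjusted p under 0.05 in limma, and 8.34%, 10.9% and 13.2% had groups without overlap. The transport and assembly list (mitochondrial carriers, porphyrin and haem transporters, proteases and iron-sulphur cluster proteins) had 0 of 19 tested genes called in each comparison, with medians of 0.12, -0.07 and -0.14 on the log2 scale and 0, 1 and 0 genes at an unadjusted p under 0.05, the 1 being FLVCR1. TSPO, an outer mitochondrial membrane protein that binds porphyrins, was at 3.34, 2.41 and 4.51 FPKM in the low-iron and 2.25, 1.75 and 2.24 FPKM in the control libraries, which did not overlap (log2 difference 0.66, SE 0.30, limma adjusted p = 0.9998). In this comparison 4 of the 19 genes, TSPO among them, were higher without overlap (6.1% of all tested genes) and 0 were lower. FLVCR1, long known as a haem exporter, was at 4.48, 4.98 and 5.64 FPKM in the high-iron libraries and at 8.81, 9.73 and 5.31 FPKM in the controls (log2 difference -0.61, SE 0.27, limma adjusted p = 0.892).

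The list for the supply of glycine and succinyl-CoA had 0 of 11 tested genes called in each comparison, with medians of 0.10, -0.14 and -0.30 and 0, 0 and 1 genes at an unadjusted p under 0.05, the 1 being OGDH. In it OGDH, which makes succinyl-CoA in the citric acid cycle, was at 61.4, 54.8 and 65.1 FPKM in the low-iron libraries, above the 43.3 to 53.7 FPKM of the controls and the 43.2 to 48.7 FPKM of the high-iron libraries. Its high-iron minus low-iron difference was -0.41 on the log2 scale (SE 0.16, limma adjusted p = 0.656). SHMT1, which converts serine to glycine, had a mean of 204 FPKM in the high-iron and 257 FPKM in the control group with no overlap (log2 difference -0.37, SE 0.24, limma adjusted p = 0.932). Among 13 tested genes for factors that act on ALAS1 transcription, 0 were called, the medians were 0.16, 0.15 and -0.0015, and 0, 0 and 2 genes had an unadjusted p under 0.05. The smallest p-values in this list belonged to CEBPA (0.66 on the log2 scale, low-iron minus control, limma adjusted p = 0.9998), NFE2L2 (0.38, high-iron minus control, limma adjusted p = 0.903) and CEBPB (-0.67, high-iron minus low-iron, limma adjusted p = 0.697).

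Of the genes that take haem apart, 4 were tested and 0 were called, with 1, 0 and 1 at an unadjusted p under 0.05, HMOX1 and HMOX2. Their log2 differences were all above 0 in the low-iron against control comparison, 0.29 to 0.65, and all below 0 in the high-iron against low-iron comparison, -0.56 to -0.37, comparisons that share the low-iron libraries. HMOX1, the inducible haem oxygenase, was at 108, 102 and 127 FPKM in the low-iron, at 56.7, 58.7 and 107 FPKM in the control and at 109, 60.4 and 92.7 FPKM in the high-iron libraries. Control 6 and high-iron 2 reached the low-iron level, and the low-iron minus control difference was 0.65 (SE 0.29, limma adjusted p = 0.9998). HMOX2, the constitutive form, was 65.8 ± 7.73 FPKM in the low-iron, 51.8 ± 3.32 FPKM in the control and 50.7 ± 5.21 FPKM in the high-iron group (SD, n = 3 each), the low-iron libraries lying above all others. BLVRB, a biliverdin reductase, differed by -0.27 between high-iron and control (SE 0.29, limma adjusted p = 0.987).

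Among liver haemoproteins and haem-binding proteins, 18 genes were tested and 0 called, with medians of 0.10, 0.10 and -0.0020 and 1 gene at an unadjusted p under 0.05 in each comparison (CYCS, CYBB and CYCS). CYCS, cytochrome c of the respiratory chain, was at 48.0, 55.1 and 57.6 FPKM in the low-iron, at 25.8, 36.7 and 38.1 FPKM in the control and at 36.0, 32.9 and 27.6 FPKM in the high-iron libraries. Every low-iron library was above every other, by 0.69 on the log2 scale over the controls (SE 0.20, limma adjusted p = 0.9998), and the high-iron minus low-iron difference was -0.74 (SE 0.20, limma adjusted p = 0.573). COX10, which converts haem b on the way to the haem of cytochrome oxidase, was at 5.98, 6.20 and 4.23 FPKM in the low-iron and 3.18, 3.62 and 3.16 FPKM in the control libraries, also with no overlap (0.69, SE 0.22, limma adjusted p = 0.9998). CYBB, the haem-holding subunit of the phagocyte oxidase, was higher in all high-iron than in all control libraries (0.60 on the log2 scale, SE 0.26, limma adjusted p = 0.892). The macrophage marker sums of the high-iron libraries given above overlapped with those of the controls. Of the 10 macrophage markers, however, 8 had a log2 difference above 0 and 2 below. Without overlap, 6 were higher in the high-iron libraries (9.14% of all tested genes) and 0 lower. The part of macrophages in CYBB was not tested.

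**Figure D4:**
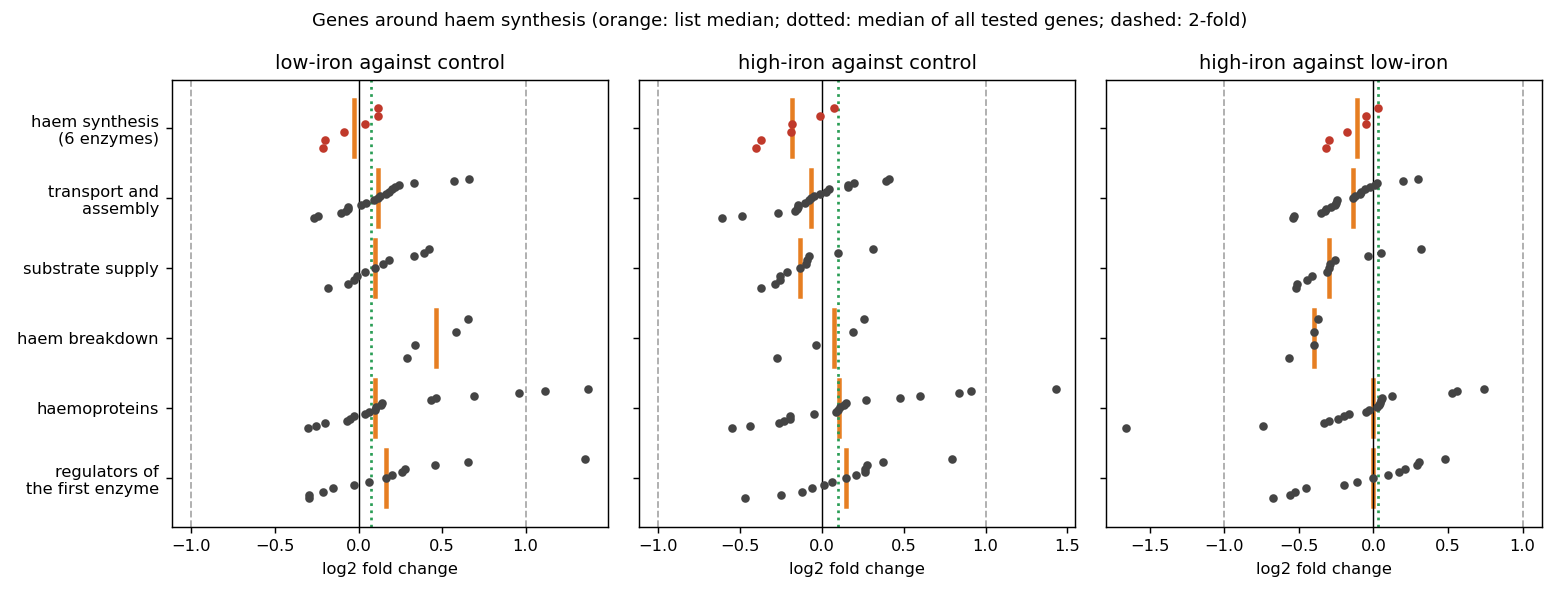
Log2 fold change of each tested gene (points) in 6 lists around haem synthesis in the 3 comparisons, with the list median (orange), the median of all tested genes (dotted) and 2-fold lines (dashed). The 6 enzymes keep within 0.41 of 0 in every panel, while the genes for haem breakdown lie above 0 in the first panel and below 0 in the third.

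Of the iron status list of 8 genes, TFRC alone was called, in each comparison (0.882%, 1.57% and 1.54% of all tested genes). Its log2 differences were 2.86 (SE 0.56, limma adjusted p = 0.9998) for low-iron minus control, 1.27 for high-iron minus control and -1.59 for high-iron minus low-iron. HAMP was not called in any comparison, with a log2 difference of -1.96 for low-iron minus control (adjusted p of the limma F test over the 3 groups 0.974). The control and high-iron values of TFRC overlapped, as did those of high- and low-iron. SLC40A1, the iron exporter ferroportin, was at 207, 187 and 210 FPKM in the high-iron libraries, above the controls at 160, 172 and 127 FPKM (0.41, SE 0.18, limma adjusted p = 0.892). The differences of the 6 enzymes were at most 0.41 in size on the same scale, and those of ALAS2 were 0.97, -0.19 and -1.17.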

How the data were processed

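Liver mRNA of 9 Wujin pigs was sequenced as paired ends, and groups were taken from the labels. Per the study's methods, the authors trimmed the reads, mapped them with HISAT2 (genome build Sscrofa11.1) and built transcripts in StringTie. The deposited FPKM values are per gene, scaled to transcript length and mapped fragments, and no scaling beyond that is stated. The table has 25918 rows, 20660 of them numbered by place in annotation release 106 (all fall on protein-coding genes, against 15031 when shifted by 1) and 5258 new genes. It holds no counts and whole reads could not be recovered. The study lists mapped reads per library but the fragments behind each gene's value are not known here, so no count model was used in place of the authors' DESeq2.

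A pseudocount of 0.1 was added and log2 taken. Genes under a mean FPKM of 0.5 were dropped, leaving 12584, and limma 3.58.1 in R 4.3.3 fitted all 3 groups together (6 residual degrees of freedom) with trended moderation. Permutation tests were exact and 2-sided. P-values set the group differences against the spread between libraries of different pigs. In limma this spread also draws on the other tested genes. The limma procedure was tested on simulated data. The enzymes and the gene lists were chosen with earlier results of these data known. Named genes are the enzymes with a value in every library and, from each other list, every called gene and the gene of smallest p per comparison. Alternatives were other pseudocounts and filters, TPM, median-of-ratios and quantile scaling, a fit of the compared groups only, array weights, a block for equal animal numbers, and each library left out once. Promoter windows were read from the RefSeq genome of the same build. A gene of 1 list is not reported here.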

Additional observations from a re-analysis of the deposited data

How the results depend on the processing

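No enzyme was called under any alternative or left-out library. The median log2 difference of the 6 enzymes between high- and low-iron was -0.28 with the animal number as a replicate block, which uses only the libraries numbered 2 and 7, against -0.11 in all libraries. The same 4 libraries without the block, a setting chosen after the data were seen, also gave -0.28. Same-numbered deviations correlated at 0.0183 and 0.0213, and differently numbered ones at -0.1586 to 0.1598. This check cannot tell whether same-numbered pigs had more in common than a number. All-gene calls were 194 in all libraries, 413 in these 4 without the block and 457 with it. Leaving out 1 library, the medians ran from -0.063 to 0.11 (low-iron against control), -0.27 to -0.020 (high-iron against control) and -0.25 to -0.0065 (high-iron against low-iron).

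Some log2 differences of the enzymes changed sign, and since no enzyme was called, all of these were uncalled differences. Low-iron against control, FECH was -0.044 with median-of-ratios and -0.053 with quantile scaling. High-iron against control, UROD was -0.057 and -0.018 under the same scalings, and FECH was 0.012 with TPM and 0.079 with array weights. High-iron against low-iron, PPOX was -0.019 and -0.012 under those scalings and UROD 0.047 in the libraries numbered 2 and 7, with or without the block. With 1 library left out, signs turned within ranges of -0.43 to 0.21 (ALAD) and -0.087 to 0.20 (FECH) for low-iron against control, -0.22 to 0.27 (UROD), -0.45 to 0.018 (PPOX) and -0.14 to 0.15 (FECH) for high-iron against control, and -0.59 to 0.055 (ALAD), -0.34 to 0.15 (UROD), -0.24 to 0.23 (PPOX) and -0.12 to 0.044 (FECH) for high-iron against low-iron. The cause was not tested.

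All-gene calls were 111, 197 and 194. They were 34, 74 and 67 with a pseudocount of 1, 235, 372 and 354 with no filter, 171 and 334 in the first and last comparison with array weights, and with 1 library left out 111 to 209, 190 to 296 and 186 to 333. Without counts per gene, no counting error is given for the lower levels, such as PPOX and UROD.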

Other observations

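Some genes that mark other liver cells were called, and the called ones are named here. For high-iron against control they were 1 of 8 endothelial and 2 of 8 stellate cell and fibroblast markers (1.57% of all tested genes). In that comparison 0 of 10 macrophage, 0 of 5 bile duct and 0 of 7 tested B and T cell markers were called. In the high-iron livers VWF, a clotting factor of endothelial cells, had a mean of 4.93 FPKM against 1.57 in the controls (log2 difference 1.68, SE 0.52, limma adjusted p = 0.885), with no overlap. COL1A1, a chain of collagen I, had means of 63.2 against 19.4 FPKM (1.53, SE 0.49, limma adjusted p = 0.885). Its level was 51.3, 30.6 and 108 FPKM in high-iron 2, 7 and 8, so high-iron 8 raised that mean. RGS5, a marker of pericytes, had 16.3 against 8.01 FPKM (1.16, SE 0.38, limma adjusted p = 0.885). Neither COL1A1 nor RGS5 overlapped between these groups. Between high- and low-iron, COL1A1 (1.51), COL1A2 (1.05) and SPP1 (1.02), an osteopontin made by bile duct cells and macrophages, were called, each with overlapping groups. These were 2 of 8 stellate cell and fibroblast and 1 of 5 bile duct markers (1.54% of all tested genes). No endothelial, macrophage or B and T cell marker was called there. VSIG4, a receptor of Kupffer cells and the macrophage marker of smallest p, was above all control and all low-iron values in the high-iron group, by 0.61 and 0.54. PTPRC, the common leukocyte antigen, was so by 0.64 and 0.62, all under the 2-fold threshold. Of 10 macrophage markers, 8 had a log2 difference above 0 and 2 below in both comparisons. Higher without overlap were 6 and 5 of the macrophage and 1 and 2 of 7 tested B and T cell markers (9.14% and 8.11% of all tested genes).

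Of the remaining genes that the naming rule chose, CPS1, the entry enzyme of the urea cycle in hepatocytes, had a mean of 431 FPKM in the high-iron and 782 FPKM in the control group with no overlap (-0.88, SE 0.24, limma adjusted p = 0.885). STAB1 (0.54), CD163 (0.28), RGS5 (0.96) and HEMGN (1.00) were higher in all low-iron than in all control libraries. HEMGN lay near the filter of a mean of 0.5 FPKM. Its group means were 0.863 (low-iron), 0.365 (control) and 0.463 FPKM (high-iron), so it passed only through the low-iron group. MS4A1 was lower in all low-iron than in all control libraries (-0.70), and CDH5 was higher in all high-iron than in all low-iron libraries (0.50). APOA1 (0.47) and CFTR (-0.87) overlapped between low-iron and control. None of these was called.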
